A study of Mus musculus with 42 samples.

Results

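The 10 genes described here encode the myogenic factors Myog, Myod1 and Myf6, the factor Runx1, the class IIa histone deacetylases Hdac4, Hdac5 and Hdac9, and the MEF2 factors Mef2a, Mef2c and Mef2d. They were taken by name, 10 of the 13809 genes in the deposited table, and each was present as 1 row. RNA was sequenced from the tibialis anterior (TA) muscle of male C57BL/6J mice of 4 months, in 42 libraries that fall into 11 groups and 2 sequencing sets. Set 1 (22 libraries) held basal and immobilized muscle of wild-type (WT) mice, of Sesn1SkM-Tg mice and of Sesn2SkM-Tg mice. Set 2 (20 libraries) held basal, immobilized and denervated muscle of WT mice and basal and immobilized muscle of Sesn1 KO mice. Each group had 4 libraries, except 3 for immobilized WT muscle of set 1 and for immobilized Sesn1SkM-Tg muscle. Sesn1SkM-Tg mice carry human Sesn1 under the muscle creatine kinase (MCK) promoter. Sesn2SkM-Tg mice express human Sesn2 from a Tet-regulated promoter driven by MCK-tTA. The paper names non-transgenic WT littermates as the controls of each line. Set 1 holds 1 WT group for both lines, and the labels do not say from which litters it came. Sesn1 KO mice lack Sesn1 throughout the body and were set against ordinary WT mice. Immobilized limbs were fixed with sticks and bandage, denervated limbs had a piece of the sciatic nerve removed, muscles were taken after 3 days, and basal muscles came from separate untreated mice.

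Muscle fibers read their own electrical activity through these factors. Active fibers keep class IIa histone deacetylases phosphorylated and in the cytoplasm, away from the MEF2 factors that they repress. When the nerve is silent, HDAC4 enters the nuclei and represses Dach2, a repressor of Myog. Myogenin then drives the acetylcholine receptor subunits and the ubiquitin ligases Trim63 and Fbxo32. MyoD, myogenin and MRF4, the product of Myf6, are basic helix-loop-helix factors that bind E-boxes with partners such as Tcf3 and Tcf12. In adult muscle, Myf6 is made in the fibers, Myod1 in fibers and activated satellite cells, and Runx1 is known as a factor induced by denervation that limits wasting.

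Levels are given as normalized counts (a linear scale close to CPM), and the table holds no reads, so depth is unknown. Library sums ran from 722430 to 1276769, with 722430 to 811541 after denervation against 1042064 to 1099736 in basal WT muscle of set 2. All 9 myofiber markers were present, and their summed level was 132300 to 146200 in basal and 55010 to 71400 in denervated WT muscle of set 2. The targeted mouse Sesn1 gene was listed at 8.42 to 10.1 in basal Sesn1 KO muscle against 22.5 to 29.7 in basal WT muscle, but at 19.4 to 37.3 in immobilized Sesn1 KO muscle against 30.7 to 53.1, ranges that overlap. In set 1, the row of mouse Sesn1 stood at 41.6 to 77.6 in basal Sesn1SkM-Tg and 14.98 to 22.1 in basal WT muscle. That of mouse Sesn2 stood at 6.54 to 13.03 in basal Sesn2SkM-Tg and 2.18 to 3.39 in basal WT muscle. The transgenes are human and reads were mapped to mouse sequences, so these rows may include transgene reads, which was not tested.

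In set 1, WT basal replicate 4 and Sesn2SkM-Tg basal replicate 2 stood apart from their groups. Over 1301 genes with exons of 10 kb or more, the median log2 difference from the group median was -0.32 and -0.43 in these libraries, and over 2108 genes with exons under 2 kb it was 0.19 and 0.27. In the other 40 libraries the long genes lay between -0.09 and 0.11. Mef2a, Mef2c, Hdac4, Hdac9 and Runx1 have 12.03 to 15.8 kb of exon, and Myog, Myod1 and Myf6 have 1.26 to 1.86 kb. WT basal replicate 4 had 94.3 normalized counts of Mef2a, against 230 to 250 in the other basal WT libraries of set 1, and Sesn2SkM-Tg basal replicate 2 had 90.7 against 197 to 245. These libraries were kept, and values without both are given where a call changes.

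**Figure D1:**
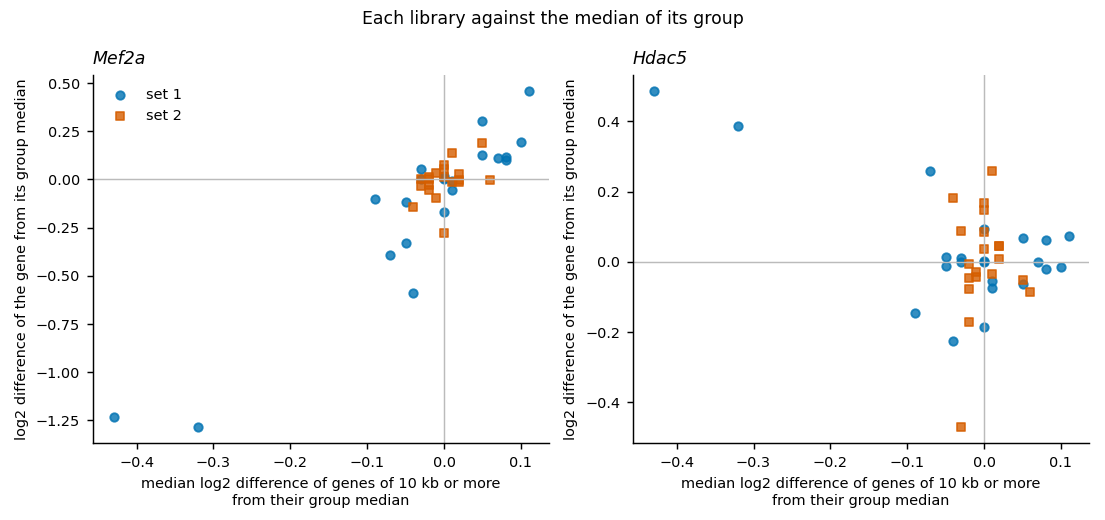
Each point is 1 of the 42 libraries. The x axis gives the median log2 difference of genes of 10 kb or more of exon from their group median, and the y axis the log2 difference of Mef2a (left) or Hdac5 (right) from its group median, with circles for set 1 and squares for set 2. The points at -0.43 and -0.32 on the x axis are Sesn2SkM-Tg basal replicate 2 and WT basal replicate 4, where Mef2a was low and Hdac5 high.

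The promoter windows below are those of Myog, a textbook case of an activity-regulated promoter read by MEF2 and E-box factors, and of Hdac9, Hdac5 and Runx1. These genes were called with denervation, and every window shown holds a match. Hdac4, Mef2a and Mef2c were also called with denervation, and their windows are not shown. Each window is the 250 bases before the start of transcription, 5′ to 3′ on the gene's strand, from RefSeq (GRCm38.p6). Capitals mark an E-box (CANNTG, which reads alike on both strands) or the core letters of a MEF2 site (CTANNNNTA, on the other strand TANNNNTAG).
Myog, chr1:134289754-134290003, plus strand: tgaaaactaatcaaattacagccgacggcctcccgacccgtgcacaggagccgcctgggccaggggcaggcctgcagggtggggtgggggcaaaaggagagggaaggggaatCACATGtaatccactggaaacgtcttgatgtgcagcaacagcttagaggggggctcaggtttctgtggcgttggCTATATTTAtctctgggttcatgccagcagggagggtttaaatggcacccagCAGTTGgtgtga
Hdac9, chr12:34528890-34529139, minus strand: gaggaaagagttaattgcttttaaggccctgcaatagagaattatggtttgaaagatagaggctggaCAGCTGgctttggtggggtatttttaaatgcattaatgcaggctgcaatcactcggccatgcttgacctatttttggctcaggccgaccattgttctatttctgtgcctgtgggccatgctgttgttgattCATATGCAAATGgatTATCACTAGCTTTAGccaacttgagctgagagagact
Hdac5, chr11:102230173-102230422, minus strand: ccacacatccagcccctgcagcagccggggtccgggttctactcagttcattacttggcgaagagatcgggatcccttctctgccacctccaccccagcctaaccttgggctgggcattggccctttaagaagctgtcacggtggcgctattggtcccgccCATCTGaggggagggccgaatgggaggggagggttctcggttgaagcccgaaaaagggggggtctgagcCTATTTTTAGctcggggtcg
Runx1, chr16:92826075-92826324, minus strand: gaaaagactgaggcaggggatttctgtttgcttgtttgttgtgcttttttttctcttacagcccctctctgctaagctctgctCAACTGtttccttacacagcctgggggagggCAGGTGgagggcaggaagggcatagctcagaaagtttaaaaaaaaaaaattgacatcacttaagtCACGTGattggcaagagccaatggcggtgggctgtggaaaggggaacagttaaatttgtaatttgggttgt
The Myog window held the MEF2 core 64 bases before the start and E-boxes 138 and 12 bases before it. In Hdac5 the matches to the MEF2 core, 20 and 19 bases before the start, are the same stretch read on both strands. Hdac9 has 2 starts in the table, and the window shown is that of the inner start, whose 3 MEF2 core matches overlap each other. The window of its outer start held 2 E-boxes and no MEF2 core. Runx1 also has 2 starts. The window of its outer start held 3 E-boxes and that of the inner start neither motif. The single windows of Hdac4, Mef2a and Mef2d held neither motif. No E-box match overlapped a MEF2 core match in these windows. The table gave windows for 8 of the 10 genes, 12 in all, not for Myod1 and Myf6. An E-box was in 7 of the 12 windows and a MEF2 core in 4, against 66.2% and 19.0% of all 32851 promoter windows of the same length. These matches describe letters only.

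In basal WT muscle of set 2, the mean level per kb of exon was highest for Myf6 (48.4 ± 12.1 normalized counts per kb, mean ± SD, n = 4). Mef2d (32.03 ± 4.28) and Mef2c (29.6 ± 1.98) followed with overlapping ranges, then Myod1 (11.5 ± 0.850) and Mef2a (11.1 ± 0.293), whose ranges also overlapped, and Hdac5 (7.62 ± 0.270). Hdac4 stood at 2.08 ± 0.300, Myog at 0.816 ± 0.234, Hdac9 at 0.436 ± 0.127 and Runx1 at 0.127 ± 0.0128 normalized counts per kb, with overlap only between Myog and Hdac9. After denervation the order changed: Myf6 stayed at the top (237 ± 28.8), Myog moved from the eighth place to the second (69.6 ± 10.8), and its range overlapped that of Myod1 (55.97 ± 5.64). Hdac9 was then lowest (0.0640 ± 0.0166). Myf6 was highest per kb in all 11 groups, its range overlapping that of Mef2c in basal Sesn2SkM-Tg muscle. This order rests on the merged length of all annotated exons of a gene, which may exceed that of the transcripts made. By normalized counts without division, Mef2c (443 to 511) was above Myf6 (50.4 to 83.8) in basal WT muscle of set 2.

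Denervation raised all 3 myogenic factors, Runx1 and Hdac4 and lowered Hdac5 and Hdac9. Of the 10 genes, 7 were called higher and 2 lower in denervated than in basal WT muscle, and Mef2d was not called. A call means a limma adjusted p under 0.05 with a log2 fold change of at least 0.25 in size, on the log2(value + 1) scale, adjusted by Benjamini-Hochberg over all genes tested. Of all 13629 genes tested in set 2, 27.8% were called higher and 27.7% lower. The median log2 fold change was 1.55 over the 10 genes and -0.03 over all genes.

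**Figure D2:**
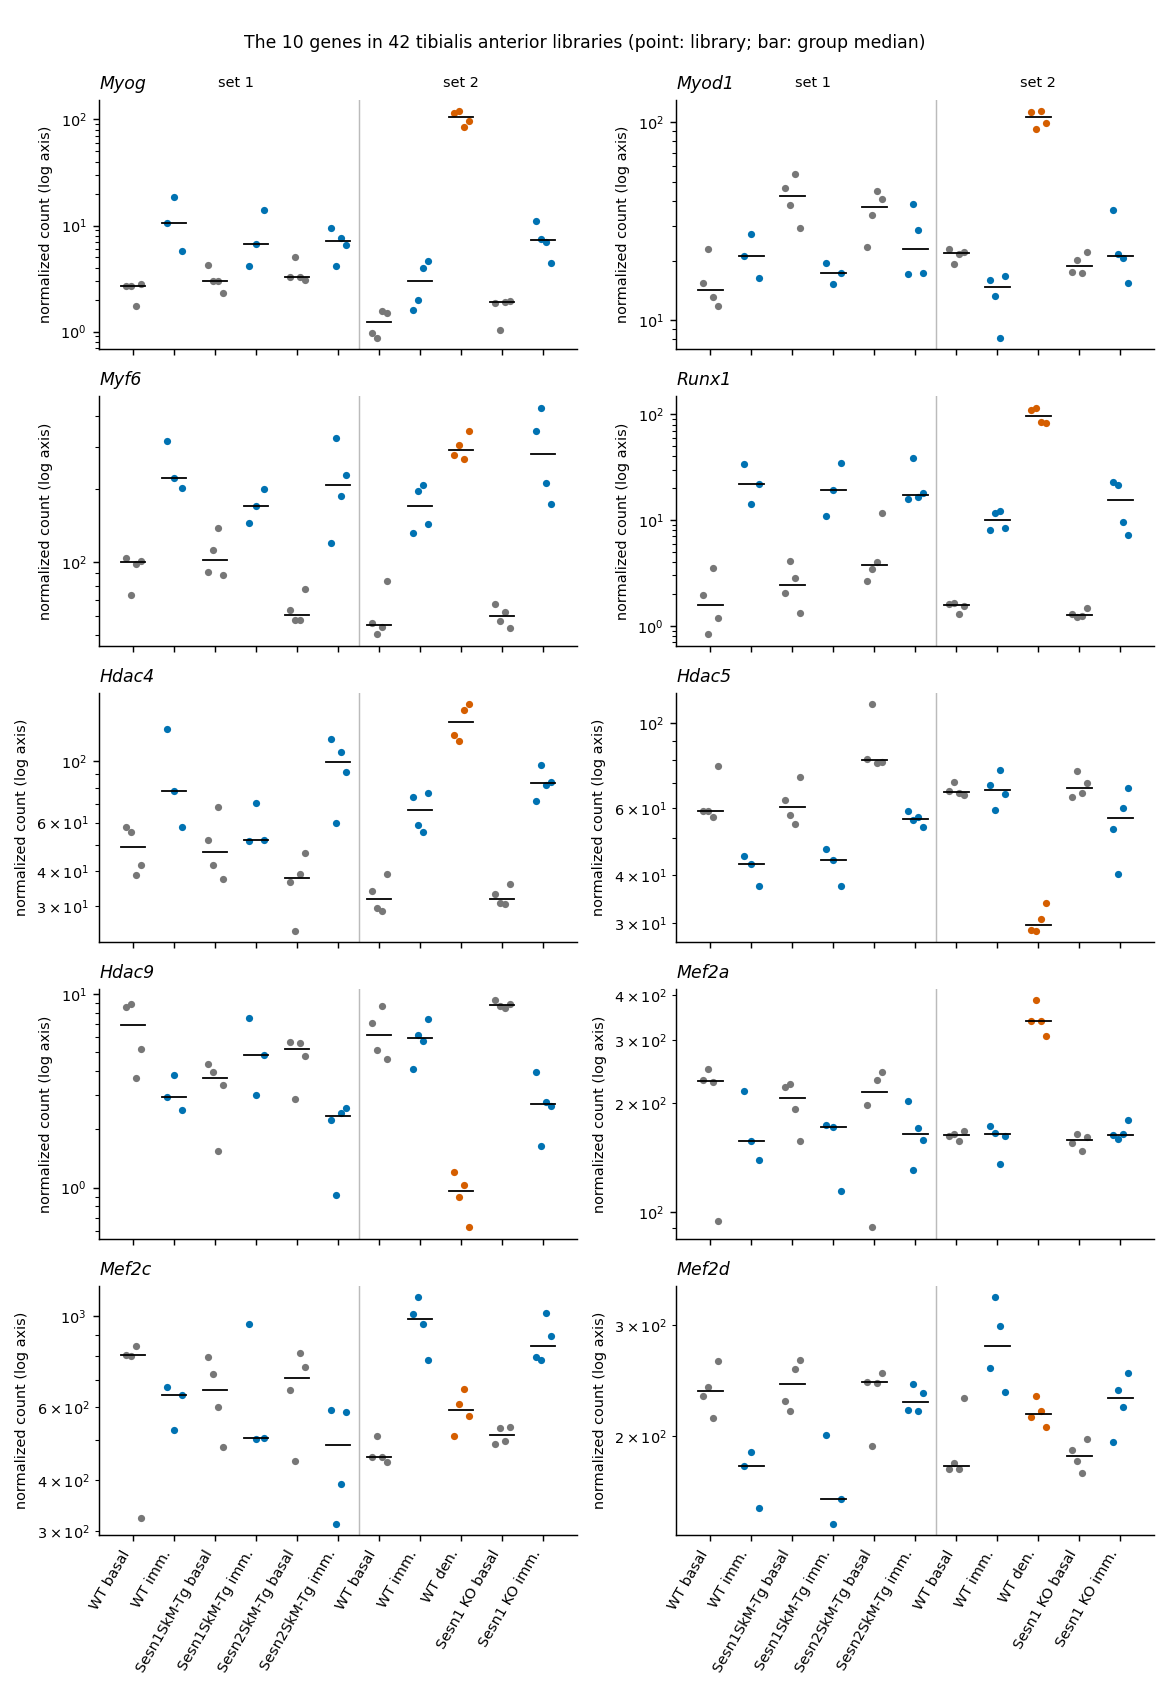
Normalized counts of the 10 genes on log axes, with 1 point for each of the 42 libraries and a bar at the median of each of the 11 groups; gray is basal, blue immobilized (imm.) and orange denervated (den.) muscle, and the vertical line parts set 1 from set 2. The orange points of Myog lie at 85.4 to 119, above every other library, and those of Hdac5 at 28.6 to 33.8, below every other library.

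Myog, the myogenin gene (chr1:134289989-134292548, GRCm38, plus strand), had 0.969, 0.872, 1.55 and 1.49 normalized counts in basal WT muscle of set 2 (4 libraries) and 116, 119, 85.4 and 95.98 after denervation. All denervated values lay far above all basal ones, and the log2 fold change was 5.57 ± 0.24, adjusted p = 2.3e-13 (47.3-fold on the value + 1 scale). Immobilized WT libraries of set 2 had 1.58, 1.996, 4.02 and 4.63, above the basal libraries without overlap and far below the denervated ones (0.81 ± 0.24, adjusted p = 0.014). Myog therefore differed between denervated and immobilized muscle by a log2 fold change of 4.76 ± 0.24, adjusted p = 1.2e-11. With basal values near 1, the added 1 of the scale lowers the fold change of Myog and Runx1.

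Myod1, the MyoD gene (chr7:46376474-46379099, plus strand), rose with denervation and fell with immobilization in the same set. Basal WT libraries held 22.8, 19.2, 21.6 and 22.1 normalized counts, denervated libraries 113, 92.0, 113 and 98.9, and immobilized libraries 16.01, 13.3, 8.14 and 16.7. The groups did not overlap, and the log2 fold changes against basal muscle were 2.23 ± 0.20, adjusted p = 6.3e-09 for denervation and -0.67 ± 0.20, adjusted p = 0.012 for immobilization.

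Myf6, the MRF4 gene (chr10:107492853-107494737, minus strand), was raised by either form of disuse. Its values were 56.3, 50.4, 53.9 and 83.8 normalized counts in basal, 132, 197, 208 and 144 in immobilized and 278, 304, 267 and 348 in denervated WT libraries of set 2. The 3 groups were fully apart. The log2 fold change was 2.30 ± 0.22, adjusted p = 1.8e-08 with denervation, 1.46 ± 0.22, adjusted p = 3.1e-05 with immobilization, and 0.83 ± 0.22, adjusted p = 0.0046 between them. Relative to the level of immobilized muscle, the step to denervation was thus smaller for Myf6 than the 4.76 of Myog and the 2.90 of Myod1, a difference between genes that was not tested. Per kb of exon, the ratio of Myog to Myod1 was 0.0528 to 0.0894 in basal, 0.123 to 0.615 in immobilized and 0.938 to 1.62 in denervated libraries of set 2.

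Runx1, a Runt-domain transcription factor (chr16:92601466-92826149, minus strand), had 1.60, 1.66, 1.31 and 1.53 normalized counts in basal WT muscle of set 2. It reached 8.003, 11.6, 12.1 and 8.44 after immobilization and 109.8, 116, 85.1 and 82.1 after denervation. The 3 groups did not overlap. The log2 fold changes against basal muscle were 2.11 ± 0.25, adjusted p = 1.6e-06 and 5.28 ± 0.25, adjusted p = 6.4e-13, and denervated exceeded immobilized muscle by 3.17 ± 0.25, adjusted p = 3e-09.

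**Figure D3:**
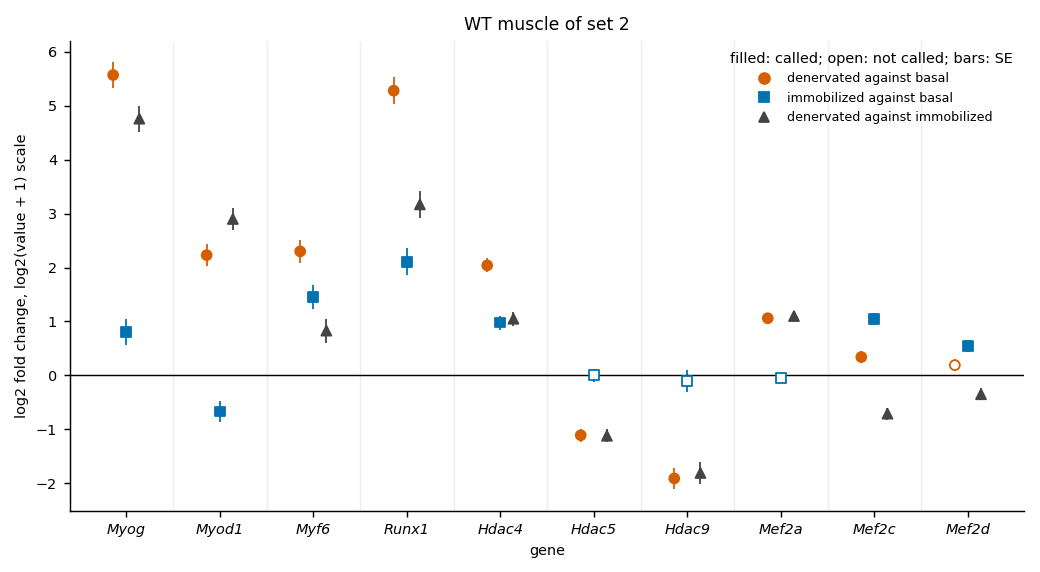
Log2 fold changes with their standard errors (y axis) of the 10 genes (x axis) in WT muscle of set 2; circles are denervated against basal, squares immobilized against basal and triangles denervated against immobilized muscle, filled where called. Myog (5.57) and Runx1 (5.28) rose most with denervation, and Hdac5 and Hdac9 fell with denervation and stayed near 0 with immobilization.

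The class IIa deacetylases moved in opposite directions. Hdac4 (chr1:91928779-92195699, minus strand), the deacetylase that accumulates in nuclei of denervated fibers, had 33.95, 29.6, 28.9 and 39.2 normalized counts in basal, 74.2, 58.8, 55.6 and 76.7 in immobilized and 124, 118, 153 and 160.2 in denervated WT libraries of set 2. Each group was above the one before it without overlap, with log2 fold changes against basal muscle of 0.98 ± 0.13, adjusted p = 5.8e-06 and 2.04 ± 0.13, adjusted p = 3.4e-11. Hdac5 (chr11:102194432-102230166, minus strand), its close relative, had 66.5, 70.3, 65.8 and 64.9 in basal and 28.7, 28.6, 30.7 and 33.8 in denervated libraries, a fall by 1.11 on the log2 scale (adjusted p = 6.4e-08). Its immobilized libraries of set 2 (68.8, 59.5, 75.4 and 65.4) lay around the basal ones (0.00 ± 0.12, adjusted p = 0.98). Hdac9 (chr12:34047580-34917095, minus strand), known as a MEF2 target that feeds back on MEF2, had 7.13, 5.18, 8.67 and 4.61 in basal, 4.09, 6.12, 5.76 and 7.45 in immobilized and 1.204, 0.898, 1.03 and 0.625 in denervated libraries. Denervated values lay below all others, with a log2 fold change of -1.91 ± 0.20, adjusted p = 5.6e-08, while immobilized and basal values overlapped (-0.10 ± 0.20, adjusted p = 0.74).

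Dividing by exon length, the ratio of Hdac4 to Hdac5 was 0.234 to 0.336 in basal WT libraries of set 2, 0.409 to 0.651 after immobilization and 2.28 to 2.76 after denervation. Hdac5 was thus above Hdac4 in every basal library of the series and below it in every denervated library. The ratio of Hdac4 to Hdac5 was on both sides of 1 in immobilized Sesn1 KO (0.692 to 1.33), Sesn2SkM-Tg (0.592 to 1.12) and set 1 WT muscle (0.86 to 1.61), and below 1 in immobilized Sesn1SkM-Tg muscle (0.609 to 0.891). The ratio of Hdac4 to Hdac9 ran from 3.09 to 7.89 in basal and from 95.2 to 238 in denervated WT libraries of set 2, and from 5.80 to 9.71 in basal WT libraries of set 1. These ratios rest on 1 exon length for each gene, so a change of isoform was not covered.

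**Figure D4:**
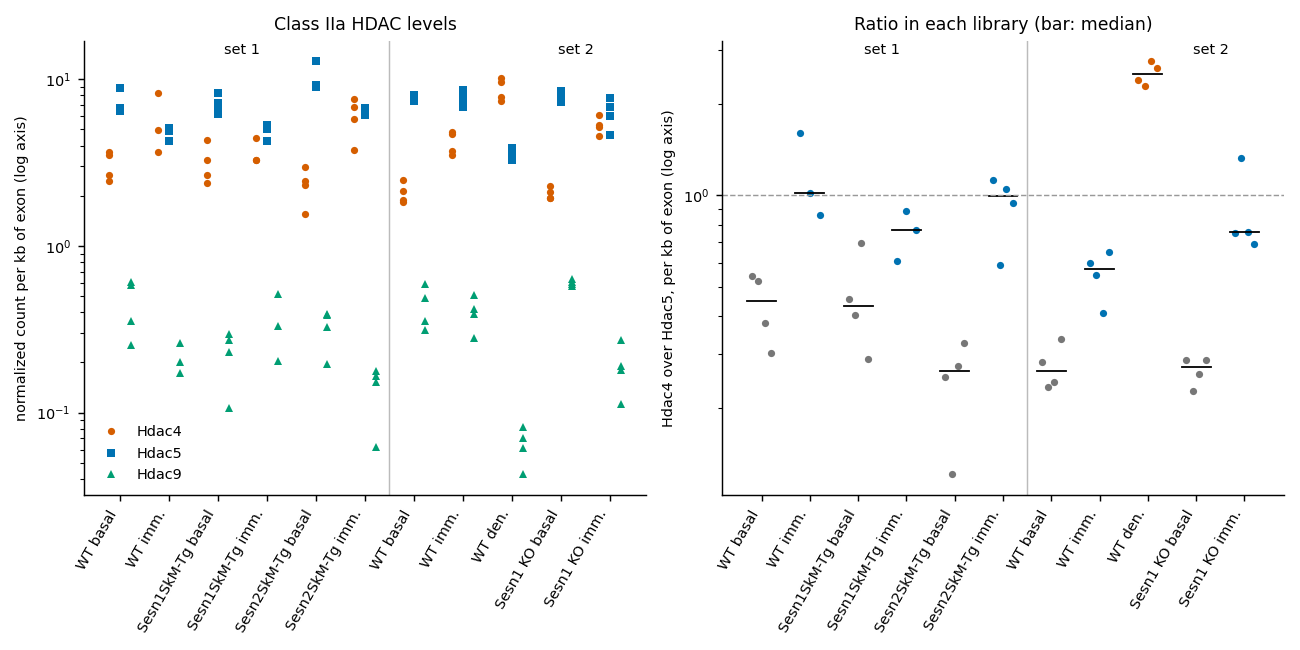
Left, normalized counts per kb of exon (log axis) of Hdac4, Hdac5 and Hdac9 in each library by group; right, the ratio of Hdac4 to Hdac5 per kb (log axis), with a bar at the group median, a dashed line at 1 and the set border as a vertical line. Denervated libraries lie at 2.28 to 2.76, and basal WT libraries of set 2 at 0.234 to 0.336.

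Among the MEF2 factors, only Mef2a rose without overlap after denervation. Mef2a (chr7:67231163-67372858, minus strand) had 162, 165, 157 and 168 normalized counts in basal and 339, 386, 339 and 308 in denervated WT libraries of set 2 (1.06 ± 0.08, adjusted p = 7.7e-10), and 173, 166, 136 and 163 in immobilized libraries, which lay around the basal ones (-0.04 ± 0.08, adjusted p = 0.76). Mef2c (chr13:83504034-83667080, plus strand) followed the other order. Its values were 455, 511, 453 and 443 in basal, 511, 609.8, 666 and 572 in denervated and 1012, 1112, 956 and 782 in immobilized libraries. The rise was 0.34 ± 0.11, adjusted p = 0.012 with denervation, where the groups overlapped, and 1.04 ± 0.11, adjusted p = 3.6e-07 with immobilization, where they did not. Mef2d (chr3:88142372-88172086, plus strand) had 178, 181, 178 and 230.1 in basal, 215, 232, 219 and 207 in denervated and 257, 333, 299 and 235 in immobilized libraries. It was called higher with immobilization (0.55 ± 0.11, adjusted p = 0.00044), and its difference with denervation was 0.19 ± 0.11, adjusted p = 0.13. In denervated against immobilized muscle, Mef2a was higher (1.10 ± 0.08, adjusted p = 1.8e-09), and Mef2c (-0.71 ± 0.11, adjusted p = 2.6e-05) and Mef2d (-0.35 ± 0.11, adjusted p = 0.011) were lower. Quantile normalization took the calls of Mef2c (-0.18, adjusted p = 0.093) and Mef2d (-0.25, adjusted p = 0.053) in that comparison away, and it called Mef2d higher with denervation (0.28, adjusted p = 0.022). Leaving out 1 library changed the call of Mef2d without WT basal replicate 4 (0.28, adjusted p = 0.027) for denervated against basal muscle, and that of Mef2d without WT immobilized replicate 2 (-0.27, adjusted p = 0.052) for denervated against immobilized muscle.

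In all, denervated and immobilized WT muscle differed for 10 of the 10 genes, 6 higher and 4 lower after denervation, where 20.5% and 18.4% of all genes were called. In immobilized against basal WT muscle of the same set, 6 genes were called higher and 1 lower (all genes, 16.2% and 17.7%).

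Bulk RNA cannot tell fewer cells of a type from less RNA per cell, and markers of other cells moved with these groups. The summed level of 8 satellite cell and myoblast markers was 50.2 to 57.9 in basal, 59.4 to 65.4 in immobilized and 110.4 to 122 in denervated WT muscle of set 2. Of the 8, 2 rose with denervation, Cdh15 (1.65, adjusted p = 1.4e-10) and Sdc4 (1.34, adjusted p = 1.1e-06), and 3 fell, Chodl (-0.82, adjusted p = 0.0066), Msx1 (-0.57, adjusted p = 0.01) and Fgfr4 (-0.55, adjusted p = 0.023). The defining markers Pax7 (-0.32, adjusted p = 0.15) and Myf5 (0.03, adjusted p = 0.9) were not called and stood at 1.38 to 2.37 and 1.12 to 1.58 in denervated libraries. Embryonic myosin Myh3 rose (3.01, adjusted p = 7.4e-06). Macrophage and leukocyte markers summed to 35.9 to 159 in basal, 47.6 to 134 in denervated and 119 to 237 in immobilized WT muscle of set 2, and in set 1 to 41.7 to 64.03 in basal and 214 to 416 in immobilized WT muscle. Of these 8 markers, 8 rose with immobilization in WT and in Sesn1SkM-Tg muscle of set 1, 3 in Sesn2SkM-Tg muscle, 2 in WT muscle of set 2 and 1 in Sesn1 KO muscle. Runx1, which leukocytes also express, rose in all 5 (3.09, 2.58, 1.94, 2.11 and 2.67 in the same order). Schwann cell markers summed to 37.96 to 65.8 in basal and 16.2 to 22.6 in denervated WT muscle of set 2, and 2 of 6 were called lower (all genes, 27.7%). With denervation, 5 of 5 endothelial, 3 of 6 fibroblast and 9 of 9 myofiber markers fell, and 5 of 5 proliferation markers rose. The part of these cells in the changes of the 10 genes was not tested.

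Immobilization was compared with basal muscle in 5 pairs of groups, WT in either set and the 3 modified lines. Runx1 and Myf6 were called higher in 5 of 5, Myog and Hdac4 in 4 of 5, and Mef2a was called in none. Hdac5 was called lower in 4 of 5 and Hdac9 in 3 of 5. Myod1 was called lower in 2, Mef2c higher in 2, and Mef2d higher in 2 and lower in 2. The 5 pairs share no library.

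**Figure D5:**
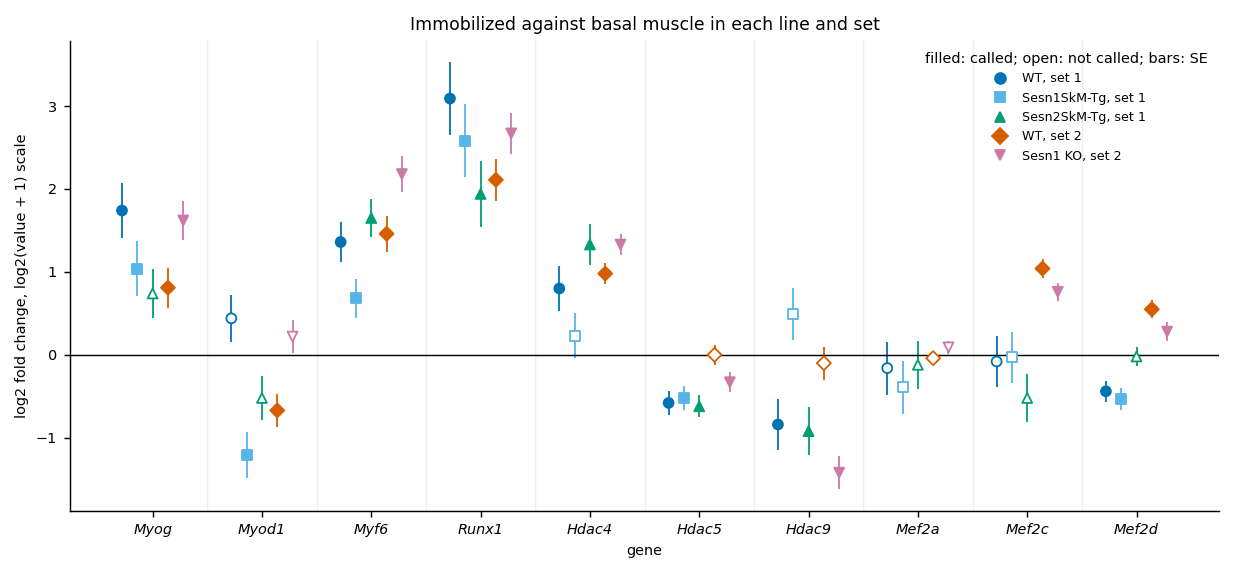
Log2 fold changes with their standard errors (y axis) of the 10 genes (x axis) in immobilized against basal muscle, for WT, Sesn1SkM-Tg and Sesn2SkM-Tg in set 1 and WT and Sesn1 KO in set 2, filled where called. Runx1 (1.94 to 3.09) and Myf6 (0.68 to 2.18) are filled in every pair, and Mef2d lies below 0 for WT and Sesn1SkM-Tg of set 1 and above 0 in set 2.

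In WT muscle of set 1, 4 of the 10 genes were called higher and 3 lower (all 13705 genes tested, 14.9% and 14.5%). Runx1 rose from 1.96, 0.830, 3.49 and 1.19 to 34.1, 14.2 and 21.7 normalized counts (3.09 ± 0.44, adjusted p = 5.9e-05) and Myog from 2.67, 2.69, 1.74 and 2.80 to 10.5, 18.5 and 5.79 (1.74 ± 0.33, adjusted p = 0.00068), both without overlap. Myf6 (1.36 ± 0.24, adjusted p = 0.00044) and Hdac4 (0.80 ± 0.27, adjusted p = 0.031) also rose. Hdac5 fell from 59.1, 59.1, 56.8 and 77.5 to 45.04, 42.7 and 37.4 (-0.58 ± 0.14, adjusted p = 0.0047). Hdac9 (-0.84 ± 0.31, adjusted p = 0.049) and Mef2d (-0.44 ± 0.13, adjusted p = 0.013) fell as well, Hdac9 with overlap between the groups. Calls lost when 1 library was left out were those of Hdac4 without any 1 of WT basal replicates 3 and 4 and WT immobilized replicates 1 and 2 (0.48 to 0.85, adjusted p = 0.055 to 0.2), Hdac9 without any 1 of WT basal replicates 1 and 2 and WT immobilized replicates 1, 2 and 3 (-0.96 to -0.69, adjusted p = 0.057 to 0.17) and Mef2d without WT immobilized replicate 3 (-0.36, adjusted p = 0.098). Without both shifted libraries Mef2a was called lower (-0.49, adjusted p = 0.049), and in a fit limited to the 2 groups compared Hdac4 (adjusted p = 0.054), Hdac9 (0.057) and Mef2d (0.058) were not called. The Hdac9 call was also lost with a pseudocount of 0.1 (adjusted p = 0.067) and with the replicate block (0.053), and the Mef2d call with quantile normalization (-0.28, adjusted p = 0.077).

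In Sesn1SkM-Tg muscle, 3 genes were called higher and 3 lower (all genes, 18.2% and 16.5%). Runx1 rose from 2.03, 4.12, 2.86 and 1.31 to 11.1, 19.3 and 34.4 (2.58 ± 0.44, adjusted p = 0.00021), and Myog (1.04 ± 0.33, adjusted p = 0.018) and Myf6 (0.68 ± 0.24, adjusted p = 0.035) rose too, Myog with overlap between the groups. Hdac4, at 51.8, 42.1, 68.2 and 37.6 in basal and 51.5, 70.6 and 52.01 in immobilized libraries, overlapped between the groups (0.23 ± 0.27, adjusted p = 0.53). Myod1 fell from 46.3, 38.1, 54.9 and 29.1 to 19.4, 15.2 and 17.2 (-1.21 ± 0.28, adjusted p = 0.0026) without overlap. Hdac5 (-0.52 ± 0.14, adjusted p = 0.0077) and Mef2d (-0.53 ± 0.13, adjusted p = 0.0037) fell. The call was lost for Myog without any 1 of Sesn1SkM-Tg basal replicate 4 and Sesn1SkM-Tg immobilized replicate 3 (0.62 to 0.94, adjusted p = 0.051 to 0.18), Myf6 without any 1 of Sesn1SkM-Tg basal replicates 1 and 4 and Sesn1SkM-Tg immobilized replicates 2 and 3 (0.57 to 0.68, adjusted p = 0.08 to 0.15) and Hdac5 without Sesn1SkM-Tg immobilized replicate 3 (-0.43, adjusted p = 0.06). Quantile normalization also took the call of Myog (0.89, adjusted p = 0.053).

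In Sesn2SkM-Tg muscle, 3 genes were called higher and 2 lower (all genes, 15.0% and 15.7%). Myf6 rose from 63.5, 57.9, 57.9 and 77.5 to 120.1, 325, 188 and 229.8 (1.65 ± 0.23, adjusted p = 1.8e-05), and Hdac4 from 36.6, 24.5, 39.02 and 46.8 to 119.6, 59.6, 107 and 91.1 (1.33 ± 0.25, adjusted p = 0.00045). Neither pair of ranges overlapped. Runx1 rose by 1.94 ± 0.40, adjusted p = 0.0011. Hdac5 (-0.62 ± 0.13, adjusted p = 0.0013) and Hdac9 (-0.92 ± 0.29, adjusted p = 0.019) fell. Myog had 3.28, 5.02, 3.29 and 3.07 in basal and 9.40, 4.12, 7.70 and 6.62 in immobilized libraries and was not called (0.74 ± 0.30, adjusted p = 0.068). Calls that changed with 1 library left out were Myog without any 1 of Sesn2SkM-Tg basal replicate 2 and Sesn2SkM-Tg immobilized replicate 2 (0.87 to 0.94, adjusted p = 0.036 to 0.045), Myod1 without Sesn2SkM-Tg immobilized replicate 2 (-0.74, adjusted p = 0.042) and Hdac9 without any 1 of Sesn2SkM-Tg basal replicates 1 and 3 and Sesn2SkM-Tg immobilized replicate 2 (-0.84 to -0.71, adjusted p = 0.056 to 0.088). Without both shifted libraries Myog was called higher (0.87, adjusted p = 0.045) and Mef2c lower (-0.71, adjusted p = 0.022), and Myog was also called in a fit limited to the 2 groups (adjusted p = 0.031).

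In Sesn1 KO muscle, 6 genes were called higher and 2 lower (all genes, 17.2% and 19.9%). Runx1 rose from 1.29, 1.21, 1.24 and 1.48 to 22.7, 21.3, 9.61 and 7.29 (2.67 ± 0.25, adjusted p = 4.5e-08), and Myf6 from 66.9, 57.3, 62.1 and 53.5 to 348, 434, 213 and 174 (2.18 ± 0.22, adjusted p = 1.6e-07). Myog went from 1.88, 1.03, 1.91 and 1.94 to 11.1, 7.53, 7.07 and 4.41 (1.62 ± 0.24, adjusted p = 2.1e-05), and Hdac4 from 33.1, 30.8, 30.6 and 36.1 to 71.7, 96.8, 81.9 and 84.2 (1.33 ± 0.13, adjusted p = 8.4e-08), all 4 genes without overlap. Mef2c (0.76 ± 0.11, adjusted p = 1.2e-05) and Mef2d (0.28 ± 0.11, adjusted p = 0.045) also rose, Mef2d with overlapping ranges. Hdac9 fell from 9.28, 8.66, 8.47 and 8.88 to 3.97, 1.64, 2.77 and 2.63 (-1.42 ± 0.20, adjusted p = 8.6e-06), and Hdac5 was lower with overlapping ranges (-0.33 ± 0.12, adjusted p = 0.029). The calls lost without 1 library were Hdac5 without any 1 of Sesn1 KO basal replicates 2 and 4 and Sesn1 KO immobilized replicates 1 and 2 (-0.32 to -0.19, adjusted p = 0.056 to 0.14) and Mef2d without any 1 of Sesn1 KO basal replicates 1, 2 and 3 and Sesn1 KO immobilized replicates 2, 3 and 4 (0.22 to 0.29, adjusted p = 0.06 to 0.13). Mef2d was not called with quantile normalization (0.20, adjusted p = 0.13), eBayes without trend (adjusted p = 0.07), the replicate block (0.052) or only the 2 groups fitted (0.055), and Hdac5 not after median centring (-0.28, adjusted p = 0.076) or with only the 2 groups fitted (0.1). Calls of WT muscle in set 2 that were lost in this way were Myog without any 1 of WT immobilized replicates 3 and 4 (0.62 to 0.68, adjusted p = 0.055 to 0.056) and Myod1 without WT immobilized replicate 3 (-0.46, adjusted p = 0.062).

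Mef2d and Mef2c answered immobilization differently in the WT muscles of the 2 sets. In set 1, Mef2d had 232, 239.8, 214 and 263 in basal and 179.5, 189 and 154 normalized counts in immobilized libraries, all immobilized values being lower. In set 2 all immobilized values (235 to 333) were above the basal ones (178 to 230.1). Mef2c had 804, 799.6, 846 and 323 in basal and 672, 528 and 644 in immobilized WT libraries of set 1, against 443 to 511 and 782 to 1112 in set 2. The set 1 effect minus the set 2 effect, in a limma fit over all 42 libraries that was added after these values had been seen, was -0.99 ± 0.16, adjusted p = 0.00063 for Mef2d, -1.12 ± 0.34, adjusted p = 0.04 for Mef2c and -0.58 ± 0.18, adjusted p = 0.047 for Hdac5, 3 of the 10 genes called where 6.20% of all genes were. The 2 sets differ in their sequencing and, by the paper's account of its controls, in their WT mice, littermates of transgenic mice or ordinary WT mice. The labels do not name the litters, and the 2 differences cannot be told apart. In the same test 4 of 6 Schwann cell markers (median 1.29), 3 of 5 endothelial markers (0.88) and 1 of 6 fibroblast markers (0.85) were higher, and 0 of 8 macrophage and leukocyte markers were called (1.37). Long genes also shifted more in set 1: genes of 10 kb or more had a median log2 fold change of -0.17 with immobilization in WT muscle of set 1 and -0.05 in set 2, and the part of these markers and of that shift in the differences was not tested. Without both shifted libraries the differences were -0.94 (adjusted p = 0.00038) for Mef2d, -1.46 (adjusted p = 0.00083) for Mef2c and -0.48 (adjusted p = 0.052) for Hdac5. Mef2d was called in every fit with 1 library left out, and the calls of the others changed for Myod1 without any 1 of WT basal set 1 replicate 2 and WT immobilized set 2 replicates 1 and 4 (1.2 to 1.29, adjusted p = 0.028 to 0.05), Hdac5 without any 1 of WT basal set 1 replicates 1, 2 and 4, WT immobilized set 1 replicates 2 and 3, WT basal set 2 replicates 1, 2, 3 and 4, WT immobilized set 2 replicates 1 and 3 (-0.61 to -0.48, adjusted p = 0.052 to 0.16) and Mef2c without any 1 of WT basal set 1 replicates 1, 2 and 3, WT immobilized set 1 replicates 2 and 3, WT basal set 2 replicates 1, 3 and 4, WT immobilized set 2 replicates 1, 2 and 3 (-1.16 to -1.0, adjusted p = 0.054 to 0.099). Quantile normalization left Mef2d called alone (Mef2c -0.85 and Hdac5 -0.42, each with adjusted p = 0.16), as did a fit of the compared groups alone (Mef2c 0.068 and Hdac5 0.058, adjusted p), and Hdac5 was not called with eBayes without trend (adjusted p = 0.058) or the replicate block (0.068).

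In basal muscle 1 of the 10 genes, Myod1, was called in 1 of the 3 lines. Sesn1SkM-Tg and WT muscle differed for 0 of the 10 genes by limma, and 0.0292% of all genes were called, 4 of 13705. At an unadjusted p under 0.05 were 2 of the 10 genes and 497 of all genes. Myod1 came closest: it had 46.3, 38.1, 54.9 and 29.1 normalized counts in Sesn1SkM-Tg and 15.4, 22.99, 13.1 and 11.8 in WT libraries, with no overlap, a log2 fold change of 1.36 ± 0.26, adjusted p = 0.073 (unadjusted p = 3.2e-05) and the rank 6 by p among all genes. Without WT basal replicate 2 it passed (1.55, adjusted p = 0.046). In Sesn2SkM-Tg muscle, Myod1 was the 1 gene of the 10 called (23.3, 34.1, 45.03 and 40.7 normalized counts, 1.13 ± 0.26, adjusted p = 0.021), where 2.50% of all genes were. The 2 comparisons share the WT libraries. That call was lost in a fit limited to the 2 groups (adjusted p = 0.072), without both shifted libraries (1.02, adjusted p = 0.067), and with 1 library left out for Myod1 without any 1 of Sesn2SkM-Tg basal replicates 2, 3 and 4 and WT basal replicates 1 and 3 (1.01 to 1.14, adjusted p = 0.054 to 0.069). Hdac5 in Sesn2SkM-Tg basal libraries (80.7, 112, 78.8 and 79.3) lay above all WT values without passing (0.46 ± 0.13, adjusted p = 0.064), but it passed without both shifted libraries (0.44, adjusted p = 0.030) and without WT basal replicate 4 (0.57, adjusted p = 0.012). In basal Sesn2SkM-Tg against WT muscle, 4 of the 10 genes had an unadjusted p under 0.05, as did 2136 of all 13705 genes. Sesn1 KO and WT basal muscle differed for 0 of the 10 genes by limma, and 0.147% of all genes were called. At an unadjusted p under 0.05 were 1 of the 10 (Hdac9, 0.44) and 632 of all 13629 genes.

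Between immobilized muscles, Sesn1SkM-Tg and WT differed for 0 of the 10 genes (all genes called, 0.00730%). At an unadjusted p under 0.05 were also 0 of the 10, and 417 of all 13705 genes. Sesn2SkM-Tg and WT also differed for 0 (all genes called, 2.94%). At an unadjusted p under 0.05 were 2 of the 10, a share near that of all genes (2637 of 13705). These were Hdac5 (0.43 ± 0.14, adjusted p = 0.1) and Mef2d (0.40 ± 0.13, adjusted p = 0.093). Both passed without both shifted libraries (adjusted p = 0.016 and 0.030). The shifted libraries are basal and outside the groups compared, so leaving them out changed the spread estimated over set 1 and not these group means. In immobilized Sesn1 KO muscle Myog was higher than in WT (11.1, 7.53, 7.07 and 4.41 against 1.58, 1.996, 4.02 and 4.63 normalized counts, 1.09 ± 0.24, adjusted p = 0.031) with overlapping ranges, and Hdac9 was lower (3.97, 1.64, 2.77 and 2.63 against 4.09, 6.12, 5.76 and 7.45, -0.88 ± 0.20, adjusted p = 0.032) without overlap. These were 2 of the 10 genes, where 0.947% of all genes were called, and 7 of the 10 had an unadjusted p under 0.05, as did 1917 of all 13629 genes. In a fit limited to the 2 groups neither was called (adjusted p = 0.41 and 0.39), and the replicate block took the call of Myog away. Calls that changed when 1 library was left out were Myog without any 1 of Sesn1 KO immobilized replicates 1, 2 and 3 and WT immobilized replicates 1 and 2 (0.90 to 1.10, adjusted p = 0.054 to 0.14), Myod1 without Sesn1 KO immobilized replicate 4 (0.90, adjusted p = 0.013), Myf6 without Sesn1 KO immobilized replicate 4 (0.93, adjusted p = 0.015), Hdac5 without Sesn1 KO immobilized replicate 4 (-0.40, adjusted p = 0.044) and Hdac9 without any 1 of Sesn1 KO immobilized replicates 2 and 3 and WT immobilized replicates 2, 3 and 4 (-0.90 to -0.72, adjusted p = 0.053 to 0.1).

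Whether a line changed the response to immobilization itself was tested as an interaction, and limma called 0 of the 10 genes in each of the 3 tests. For Sesn1SkM-Tg against WT, 2 genes had an unadjusted p under 0.05, Myod1 (-1.65 ± 0.40, adjusted p = 0.83) and Hdac9 (1.33 ± 0.44, adjusted p = 1), and 0% of all genes were called, with 401 at an unadjusted p under 0.05. For Sesn2SkM-Tg against WT, 0.00730% of all genes were called, and Myog (-1.0 ± 0.45, adjusted p = 0.65), Myod1 (-0.95 ± 0.38, adjusted p = 0.6) and Mef2d (0.43 ± 0.18, adjusted p = 0.62) were the 3 genes under the unadjusted 0.05, as were 1008 of all genes. For Sesn1 KO against WT these were 4, Hdac9 (-1.32 ± 0.28, adjusted p = 0.14), Myod1 (0.89 ± 0.28, adjusted p = 0.41), Myog (0.82 ± 0.34, adjusted p = 0.56) and Myf6 (0.71 ± 0.31, adjusted p = 0.58), and 0.0220% of all genes were called, with 1087 at an unadjusted p under 0.05. A call in 1 line and none in another is therefore not a shown difference between them.

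Genes that act with these factors were followed in 7 lists, whose counts stand against the 27.8% of all genes called higher and 27.7% lower with denervation, 14.9% and 14.5% with immobilization in WT muscle of set 1, and 16.2% and 17.7% in set 2. Of 18 genes of the pathway from HDAC4 and myogenin in denervated muscle, 12 rose and 6 fell with denervation, with a median log2 fold change of 2.25 against -0.03 over all genes. Among those that rose were Gadd45a, a stress gene downstream of HDAC4 (4.61, adjusted p = 1.1e-12), and the acetylcholine receptor subunits Chrna1 (4.60, adjusted p = 5.9e-12) and Chrnd (4.27, adjusted p = 2.4e-10). Dach2, the repressor of Myog, fell (-2.35, adjusted p = 1.2e-07). With immobilization of WT muscle, 8 rose and 4 fell in set 1 and likewise 8 and 4 in set 2. Gadd45a rose in both (2.59 and 1.95), and Chrna1 rose by 2.02 and 0.77. Chrnd was at 1.09, adjusted p = 0.1 and -0.08, adjusted p = 0.87.

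Of 28 kinases, 14-3-3 proteins, corepressors and other deacetylases that work with the class IIa enzymes, 12 rose and 6 fell with denervation (median 0.06), where 27.8% and 27.7% of all genes did. Sik1, a kinase of class IIa deacetylases, rose by 3.64, adjusted p = 1.1e-12, and by 1.55 and 1.61 with immobilization of WT muscle in set 1 and set 2. The 14-3-3 genes Ywhaz (1.14, adjusted p = 3.1e-08) and Ywhab (1.11, adjusted p = 1.3e-09) rose as well. Camk2a, a calcium-dependent kinase, fell with denervation (-1.94, adjusted p = 7.4e-09) and with immobilization in WT muscle of set 1 and set 2 (-1.38 and -1.35). Of these 28 genes, 6 rose and 8 fell with immobilization in WT muscle of set 1, and 6 rose and 5 fell in set 2.

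Calcineurin and NFAT couple calcium to fiber type. Among 16 genes of calcineurin, NFAT and their regulators, 3 rose and 7 fell with denervation (median -0.41, all genes 27.8% and 27.7%). The falls were largest for the regulators Myoz3 (-3.03, adjusted p = 6.9e-10), Rcan2 (-1.91, adjusted p = 1.1e-09) and Myoz1 (-1.90, adjusted p = 1.3e-09) and for the catalytic subunit Ppp3cb (-0.93, adjusted p = 2.5e-06). These 4 also fell with immobilization in WT muscle of set 1 (-1.93, -1.03, -0.96 and -0.73) and set 2 (-1.11, -0.76, -0.60 and -0.50). Over the list, 0 rose and 6 fell in set 1, and 2 rose and 6 fell in set 2. Of 18 immediate early factors, 6 rose and 4 fell with denervation (median 0.14), counts near the shares of all genes. Nr4a1, an exercise-induced nuclear receptor, fell (-3.27, adjusted p = 1.3e-06; -2.28 and -1.34 with immobilization in set 1 and set 2), and Nr4a3 fell with denervation (-2.54, adjusted p = 0.0052). Junb (2.83, adjusted p = 3e-07) and Myc (2.78, adjusted p = 6.9e-10) rose. With immobilization in WT muscle, 3 rose and 2 fell in set 1, and 7 rose and 1 fell in set 2.

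Of 16 partners of the myogenic factors tested, 4 rose and 2 fell with denervation (median -0.06), no more than the 27.8% and 27.7% of all genes. Mymk, the fusion protein myomaker (1.46, adjusted p = 8e-06), Eya4 (0.95, adjusted p = 1.7e-05) and the E-protein gene Tcf12 (0.69, adjusted p = 5.1e-06) rose, and Eya1 fell (-0.85, adjusted p = 0.00093). With immobilization in WT muscle, 0 rose and 2 fell in set 1, and 2 rose and 1 fell in set 2. Of 14 inhibitors of basic helix-loop-helix factors, 6 rose and 2 fell with denervation (median 0.18), led by Id2 (2.05, adjusted p = 6.8e-08), Id3 (1.13, adjusted p = 2.3e-05), Hes1 (1.00, adjusted p = 1.3e-05) and Snai1 (0.76, adjusted p = 0.016). Id2 was called higher with immobilization in WT muscle of set 1 (0.84, adjusted p = 0.028) and was at -0.13, adjusted p = 0.68 in set 2. Over this list 4 rose and 0 fell in set 1, and 2 rose and 0 fell in set 2. Of 8 RUNX relatives and cofactors tested in set 2, 2 rose and 3 fell with denervation. Runx1t1 (1.47, adjusted p = 1.5e-05) and Runx2 (0.72, adjusted p = 0.013) rose, and Cbfa2t3 (-1.72, adjusted p = 4.7e-08) and Tle3 (-0.46, adjusted p = 0.044) fell. With immobilization 0 rose and 2 fell in WT muscle of either set.

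The genes with the most similar pattern were sought by Pearson's r of log2(value + 1), taking the lower of the r over the 22 libraries of set 1 and the r over the 20 of set 2. The libraries of a set share groups and normalization, so these r are descriptions that mix groups and libraries. Runx1 was nearest to Lgals3 and Rrad (lower r 0.92 each) and Nfkb2 (0.91). Myf6 was nearest to Odc1 and Tmbim1 (0.91 each) and Pir (0.90), Hdac5 was near Ecsit and Thra (0.90 each), and Mef2a was nearest to Ttc37 (0.90), Celf2 and Kmt2c (0.89 each). For Hdac4 they were Slc6a9 (0.84), Trim63 (0.83) and Serinc3 (0.81), and for Myog Ccne1 and Cst6 (0.83 each) and 1810022K09Rik (0.82). Hdac9 was nearest to Gm17056 (0.83), Lsmem1 (0.82) and Itgb6 (0.77), Mef2c to Psme4 (0.83), Zak and Shoc2 (0.81 each), and Mef2d to Cpsf1 (0.81), Arfgef2 (0.80) and Eif4g1 (0.78). Myod1 had no gene above 0.64 (Sh2b1, then Chrdl2 and Ercc2 at 0.61). Among the 10 genes themselves, Runx1 and Myf6 had r of 0.80 in set 1 and 0.90 in set 2, and Hdac4 and Hdac5 -0.59 and -0.80. Myog and Myod1 had -0.15 in set 1, which holds no denervated muscle, and 0.89 in set 2, and Mef2a and Mef2c had 0.76 in set 1, where both were low in WT basal replicate 4 and Sesn2SkM-Tg basal replicate 2, and -0.14 in set 2.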

How the data were processed

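RNA from 42 TA muscle libraries was sequenced in 2 sets. Per the study's notes, the authors trimmed reads with cutadapt 1.7.1, counted them on GRCm38 with RSEM 1.2.20, normalized them with limma, and deposited 1 table of normalized counts (a linear signal of coverage per gene) for 13809 genes. No reads or raw counts were used here, so depth and counting error are unknown, and how the sets were scaled to each other is not given in the sources used here. Counting by strand was not stated, so reads of antisense genes may be included.

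Groups came from the sample labels. Values were set to log2(value + 1), and genes reaching 1 in any library were fitted by set with limma 3.58.1 (lmFit, eBayes with trend, R 4.3.3), all groups of a set in 1 model, with Benjamini-Hochberg adjustment over all genes and a fold change limit of 0.25 on the log2 scale. The scripts were tested on simulated data. The labels do not say which mouse a library came from, so p-values measure the spread between libraries, which may be technical. Replicate numbers are shared between groups, and the labels do not say whether they pair the libraries. Over 48 pairs with the same number, deviations from group means had r of -0.45 to 0.53, with 14 over 0.1. In 0 of 13 comparisons were all over 0.1. With so few libraries in a group, these values cannot exclude pairing or shared handling. The main fits used no pairing, and the replicate block was an alternative.

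The 10 genes and the gene lists were chosen with earlier results of these data known. Named genes were all 10, the 4 of each list with the largest absolute log2 fold change with denervation among those called, and the 3 most similar genes of each of the 10, except for some that are not reported here. Dach2, Cdh15, Sdc4, Chodl, Msx1, Fgfr4, Pax7, Myf5 and Myh3 were named after their values were seen. Exon lengths and gene coordinates came from the GENCODE annotation of GRCm38 and promoters from RefSeq. Figures were drawn with matplotlib 3.10.9 (Python 3.11.15). Alternatives were no filter, a level of 1 required in 3 libraries, a pseudocount of 0.1, quantile normalization, median centring, eBayes without trend, the replicate block, only the compared groups, a fold change limit of 1, and each library left out. The comparison between sets and the fits without both shifted libraries were added after seeing the data.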

Additional observations from a re-analysis of the deposited data

Results flagged for a closer look

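In groups of 4 libraries, the gap of the highest or lowest value to its neighbor passed Dixon's limit in 12 of 90 group tests, and chance gives about 1 in 20. Of these 12, 3 fell on WT basal replicate 4 of set 1, with 94.3 normalized counts of Mef2a, 323 of Mef2c and 77.5 of Hdac5, and 3 on Sesn2SkM-Tg basal replicate 2, with 112 of Hdac5, 193 of Mef2d and 5.02 of Myog. These are the libraries in which long genes as a whole were low. Sesn2SkM-Tg immobilized replicate 2 had 39.0 of Runx1, above its group, and 0.916 of Hdac9, below it. The others were Myog at 1.74 in WT basal replicate 3 of set 1 and at 1.03 in Sesn1 KO basal replicate 2, Myf6 at 73.2 in WT basal replicate 2 of set 1, and Mef2d at 230.1 in WT basal replicate 4 of set 2.

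The effect of immobilization in WT muscle differed between the sets by test for Mef2d (set 1 minus set 2, -0.99), Mef2c (-1.12) and Hdac5 (-0.58). The Mef2d call held in every fit with 1 library left out, while those of Mef2c and Hdac5 were each lost in 11 of 15 such fits. Quantile normalization and a fit of the compared groups alone also took the calls of Mef2c and Hdac5 away. For Mef2d every immobilized library lay above the basal ones in WT muscle of set 2 (log2 fold change 0.55) and below them in WT (-0.44) and Sesn1SkM-Tg muscle (-0.53) of set 1. The difference between WT muscle of set 2 and Sesn1SkM-Tg muscle was not tested.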

How the results depend on the processing

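Over the 16 comparisons within sets and the 1 between sets, 3050 values of single genes under alternatives held 98 lost calls, 20 gained calls and 0 called values of the opposite sign, and 125 uncalled values changed sign. With a fold change limit of 1, the members called fell to 3 in immobilized WT muscle of set 1 and set 2, in Sesn1SkM-Tg and in Sesn2SkM-Tg muscle, to 5 in Sesn1 KO muscle, and to 1 in immobilized Sesn1 KO against WT muscle and between the sets. In fits limited to the groups compared, they were 4 in immobilized WT muscle of set 1, 0 for Sesn2SkM-Tg against WT basal muscle, 0 for Sesn1 KO against WT immobilized muscle and 1 between the sets, where fewer libraries estimate the spread. The replicate block left 1 of 2 members called in immobilized Sesn1 KO against WT muscle, where Hdac9 stayed called and Myog did not (adjusted p = 0.058). It changed no other count of members by over 1.5 times. Quantile normalization left 1 called between the sets. Without both shifted libraries, 2 members were called between the sets. For Sesn2SkM-Tg against WT immobilized muscle 2 were called as well, although these basal libraries are not in the groups compared.

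With 1 library left out, the members called ranged from 9 to 10 for denervated against basal and against immobilized WT muscle, from 5 to 6 for immobilized WT of set 1, 5 to 7 for WT of set 2, 3 to 6 for Sesn1SkM-Tg, 4 to 6 for Sesn2SkM-Tg and 6 to 7 for Sesn1 KO muscle. They ranged from 0 to 1 for Sesn1SkM-Tg and 0 to 2 for Sesn2SkM-Tg against WT basal muscle, 0 to 5 for Sesn1 KO against WT immobilized muscle, 1 to 4 between the sets, and 0 to 0 in the other comparisons. Depth is unknown, and Myog, Runx1 and Hdac9 lay near 1 normalized count in some groups, where the added 1 lowers a fold change.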
